A study of Rosa rugosa with 4 samples.

Results

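The PR-10 proteins and other defence proteins of the rose Rosa rugosa, whose fragrant petals are harvested for oil, were followed across 2 petal and 2 leaf libraries, named here petal 1, petal 2, leaf 1 and leaf 2. The plants were greenhouse grown and received no treatment, and total RNA depleted of ribosomal RNA was sequenced. The authors assembled all reads into transcripts (contigs) with Trinity and gave each contig 1 value per library in FPKM (fragments per kilobase of contig, scaled to the mapped fragments of the library). Of the 65535 contigs in the table, 66 were taken here because their first database hit came from strawberry, rose, cherry and peach, apple or pear relatives (Fragaria, Rosa, Prunus, Malus or Pyrus) and was named as a major allergen, PR10, pathogenesis-related, MLP-like, thaumatin, chitinase, glucan endo-1,3-beta-glucosidase, peamaclein or defensin. No hit named snakin, gibberellin-regulated protein, osmotin or PR-1. The best hit was Fragaria for 65 contigs and Pyrus for 1.

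PR-10 proteins are small proteins of the plant cell interior with the fold of the birch pollen allergen Bet v 1, and the major allergens of cherry (Pru av 1), apricot (Pru ar 1) and apple (Mal d 1) belong to them. Many PR-10 genes are induced by pathogens, and in strawberry fruit PR-10 proteins bind intermediates of flavonoid synthesis. MLP-like (major latex protein-like) proteins share that fold. Secreted members of the pathogenesis-related families act outside the cell: chitinases cut the chitin and beta-1,3-glucanases the glucan of fungal walls, and thaumatin-like (PR-5) proteins, snakin/GASA peptides and defensins are small proteins with antimicrobial members.

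The 66 contigs were short, 181 to 1099 nt with a median of 276.5 nt, and matched 40 distinct database sequences. Each contig is therefore mostly a piece of a gene, and several contigs can come from 1 gene or 1 family and compete for the same fragments. By product name 23 were PR-10, 11 beta-1,3-glucanases, 9 chitinases, 6 MLP-like, 6 thaumatin-like (PR-5), 2 snakin/GASA (peamaclein), 1 a defensin and 8 other pathogenesis-related names. This last group held PR-4, PR-5, a homeodomain protein and a PTI6-like activator, and the homeodomain protein and PTI6 are regulators of transcription in other plants, not secreted proteins. Of the 66, 47 were above 0 in at least 1 library and 19 were listed at 0 in all 4. The number of fragments behind each value was read from the smallest steps of the FPKM values, and 16 contigs had at least 20 fragments over the 4 libraries. These 16 carry the results below, and the other 31 contigs above 0 had fewer than 20 fragments each.

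The libraries differed before any defence transcript was considered. Mapped depth, read from the same steps, was about 18600000 and 23700000 fragments in petal 1 and petal 2 and about 26700000 and 20200000 in leaf 1 and leaf 2, and the contigs of this table took 0.799 to 2.93% of it. Contigs whose best hit was grey mould (Botrytis or its relative Sclerotinia), a fungus that infects petals, took 0.769% of the mapped fragments of petal 2 and 0.000277 to 0.000667% in the other 3 libraries. Chelicerate hits (mites, ticks, spiders and relatives) also stood out in petal 2, at 0.0655%, against 3.69e-06 to 2.69e-05% in the other 3 libraries. Aphid hits took 0.0776 and 0.101% in the petal libraries, against 0.00245 and 0.00295% in the leaf libraries. The leaf spot fungus Marssonina accounted for 0.000150 and 0.00476% in petal, against 0.0351 and 0.0190% in leaf. The part of these organisms in the plant values below was not tested. Of 42 contigs on the petal marker list 3 had at least 20 fragments. An anthocyanidin glucosyltransferase (TR107530|c0_g1_i1) had 0 and 13.83 FPKM in petal 1 and petal 2 and was at 0 in leaf. An anthocyanidin reductase (TR16799|c0_g2_i1) had 0 and 1.01 FPKM in petal, against 0.33 and 3.08 FPKM in leaf. Only 1 of the 3 was higher in both petal libraries, against 16.9% of all and 26.9% of plant-hit contigs with at least 20 fragments. This was the rose scent enzyme NUDX1 (TR136248|c0_g1_i1), with 347.12 and 35.45 FPKM in petal 1 and petal 2, against 0.74 and 0.09 FPKM in leaf 1 and leaf 2. Of 14 contigs on the leaf marker list, all for light harvesting and photosynthesis, 2 had at least 20 fragments in this table, too few to check the leaf labels, and neither was higher in both leaf libraries (TR146068|c0_g1_i1, a chlorophyll a-b binding protein, had 79.56 and 30.51 FPKM in petal, against 16.31 and 20.33 FPKM in leaf). The labels do not state whether both libraries of a tissue stem from different plants, so the spread between them may be technical only. In the main test below, p-values rested on a spread pooled over contigs of similar level, not on that of each transcript. In bulk tissue, fewer cells of a type and less RNA per cell cannot be told apart.

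Summed by group, in fragments per 1000000 mapped fragments (FPM), the defence transcripts were distributed very unequally over the 4 libraries. PR-10 contigs took 25.1 and 193 FPM in petal 1 and petal 2, against 9.91 and 12.6 in leaf 1 and leaf 2. Petal 2 thus stood far above the other 3 libraries, 7.72-fold above petal 1 and 9.22-fold without its most abundant contig, TR20136|c0_g1_i1. Peamaclein, the single snakin/GASA contig above 0, took 533 and 314 FPM in the petal libraries, against 4.35 and 20.2 in the leaf libraries, and here both petal libraries were high. MLP-like contigs took 2.52 and 0.164 FPM in petal, against 0.117 and 79.5 in leaf, so that leaf 2 alone was high. Among the contigs of this table, the enzymes that cut fungal walls were below PR-10 and peamaclein in every library. Chitinase contigs took 0.591 and 2.79 FPM in petal, against 0.845 and 0.692 in leaf. Beta-1,3-glucanase contigs differed less between libraries, with 1.40 and 1.02 FPM in petal, against 1.16 and 0.841 in leaf. Thaumatin-like contigs had 0.539 and 0.167 FPM in petal, against 0.412 and 1.43 in leaf. This sum leaves out 3 contigs named pathogenesis-related protein 5, which were counted among the other names. They took 0 and 0.0435 FPM in petal 1 and petal 2, against 0.187 and 0.149 in leaf 1 and leaf 2.

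**Figure D1:**
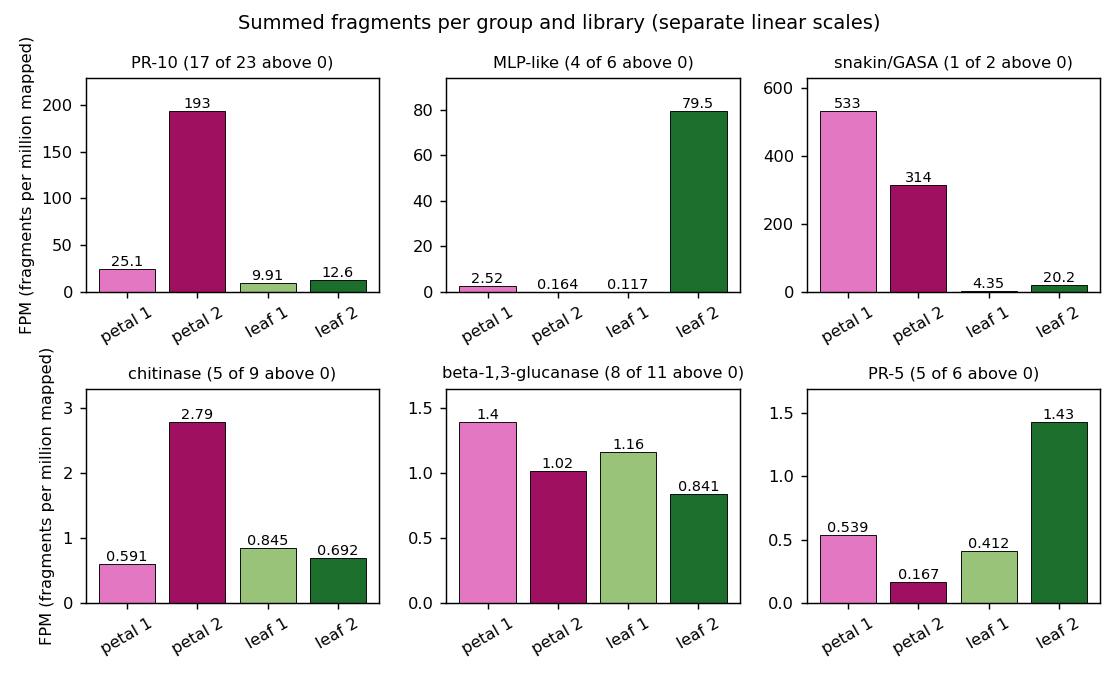
FPM, summed over the contigs of each group (vertical axis, linear and separate for each panel), in petal 1, petal 2, leaf 1 and leaf 2 (1 bar per library). PR-10 and chitinase contigs were highest in petal 2 (193 and 2.79), MLP-like and PR-5 contigs in leaf 2 (79.5 and 1.43), and snakin/GASA and beta-1,3-glucanase contigs in petal 1 (533 and 1.4).

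The PR-10 group held 23 contigs with 12 distinct best hits. Of these contigs 17 were above 0 and 8 had at least 20 fragments. The most abundant was TR20136|c0_g1_i1 (260 nt), a major allergen Pru ar 1-like sequence closest to LOC101300334 of woodland strawberry. It had 771.67 and 4185.40 FPKM in petal 1 and petal 2, against 475.59 and 266.35 FPKM in leaf 1 and leaf 2, and rested on 168, 1076, 102 and 45 fragments in that order. Both petal libraries lay above both leaf libraries, and petal 2 was 5.42-fold above petal 1 (exact 95% interval 4.60 to 6.41). Leaf 2 was at 0.560 of leaf 1 (0.387 to 0.806). These intervals compare 1 library with another and cover counting error only.

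A second contig of the same Trinity component, TR20136|c0_g2_i1 (277 nt), is Pru ar 1-like and closest to LOC101300045. It had 0 and 3270.98 FPKM in petal 1 and petal 2, against 0 and 166.27 FPKM in leaf 1 and leaf 2. It was therefore present in library 2 of each tissue and listed at 0 in library 1 of each. Against a floor of 3 fragments per library, petal 2 was at least 368-fold higher than petal 1 and leaf 2 at least 18.3-fold higher than leaf 1. Contigs of 1 component can be copies of a gene between which the abundance estimate divides fragments, so the sum of both is also given. Summed, the component had 168 and 2397 fragments in petal 1 and petal 2, against 102 and 87 in leaf 1 and leaf 2. Petal 2 was then 11.2-fold above petal 1 (9.60 to 13.2), and the leaf libraries differed by 1.13-fold with an interval that includes equality (0.836 to 1.51).

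**Figure D2:**
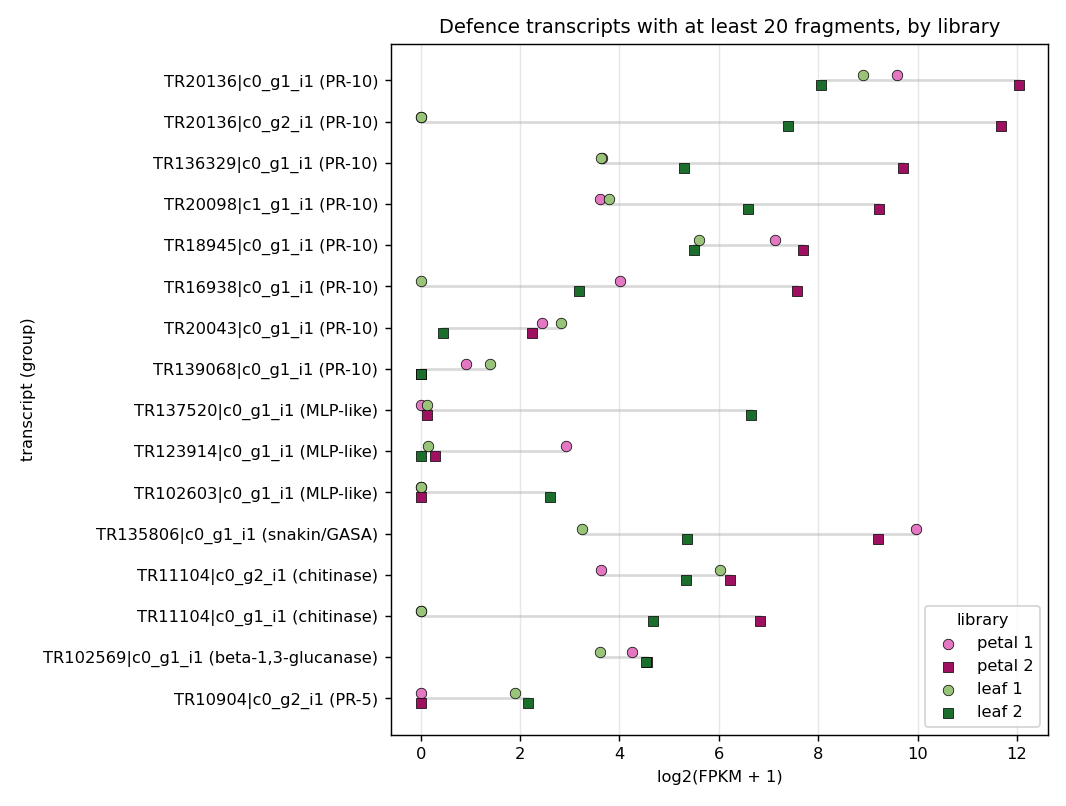
Level of each of the 16 defence transcripts with at least 20 fragments, as log2(FPKM + 1) on the horizontal axis, with 1 point per library (pink circles petal 1, purple squares petal 2, light green circles leaf 1, dark green squares leaf 2) and a grey line over the range. Petal 2 was the highest library for 6 of the 8 PR-10 contigs, led by TR20136|c0_g1_i1 at 4185.4 FPKM, and leaf 2 was highest for the MLP-like 43 contig TR137520|c0_g1_i1 at 99.77 FPKM.

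Other PR-10 contigs from other components were also highest in petal 2. TR136329|c0_g1_i1 (325 nt), whose best hit is the putative PR10 of the Chilean strawberry Fragaria chiloensis, had 11.52 and 836.08 FPKM in petal 1 and petal 2, against 11.45 and 38.44 FPKM in leaf 1 and leaf 2. Petal 1 was thus at the level of leaf 1, and petal 2 was 72.6-fold above petal 1 (39.3 to 152). TR20098|c1_g1_i1 (339 nt), Pru av 1-like and closest to LOC101298594, had 11.22 and 598.44 FPKM in petal, against 12.75 and 95.05 FPKM in leaf. Its ratio of petal 2 to petal 1 was 53.3 (30.4 to 104). For both contigs leaf 2 was also above leaf 1, by 3.36-fold (1.55 to 7.82) for TR136329|c0_g1_i1 and 7.45-fold (4.16 to 14.2) for TR20098|c1_g1_i1. TR16938|c0_g1_i1 (276 nt), Pru ar 1-like and closest to LOC101299757, had 15.17 and 190.43 FPKM in petal, against 0 and 8.05 FPKM in leaf, on 82 fragments in all. Both petal libraries were above both leaf libraries, though petal 1 rested on 5 fragments and leaf 2 on 2. Petal 2 was 12.6-fold above petal 1 (5.15 to 39.8).

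The excess of petal 2 was not shared by every PR-10 contig. TR18945|c0_g1_i1 (366 nt), Pru ar 1-like and closest to LOC101294447, had 139.49 and 207.13 FPKM in petal, against 47.82 and 44.52 FPKM in leaf, on 725 fragments. It was more even than the contigs above: its ratio of petal 2 to petal 1 was 1.48 (1.25 to 1.77), its leaf libraries did not differ beyond counting error (ratio of leaf 2 to leaf 1 of 0.931, 0.643 to 1.34), and its mean was 3.75-fold higher in petal. TR20043|c0_g1_i1 (469 nt) was closest to the same strawberry gene as TR20136|c0_g1_i1 but was low in all libraries, at 4.42 and 3.75 FPKM in petal, against 6.08 and 0.36 FPKM in leaf, with no excess in petal 2 (ratio to petal 1 of 0.848, 0.392 to 1.84). These last 2 contigs were chosen after their values were seen. TR139068|c0_g1_i1 (838 nt), with the PR10 hit of Fragaria chiloensis, ran the other way, at 0.88 and 0 FPKM in petal 1 and petal 2, against 1.65 and 0 FPKM in leaf 1 and leaf 2. It was present in library 1 of each tissue and at 0 in library 2 of each, on 32 fragments.

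The 9 PR-10 contigs above 0 with fewer than 20 fragments reached up to 276.21 FPKM, because on the shortest contigs 1 fragment was worth many FPKM. Of them 3, also chosen after their values were seen, passed the filter on level used for the test below. TR1349|c0_g1_i1 (208 nt) had 59.72 and 78.94 FPKM in petal, against 276.21 and 128.78 FPKM in leaf, on 2, 3, 10 and 4 fragments. TR116269|c0_g1_i1 and TR141242|c0_g1_i1, both closest to LOC101295036, reached 241.21 and 47.79 FPKM in petal 1 and were listed at 0 in the other 3 libraries. With 5 contigs in all, LOC101295036 ran against the leading best hits, with 37 and 4 fragments in petal 1 and petal 2, against 0 and 1 in leaf 1 and leaf 2. The remaining 6 PR-10 contigs were listed at 0 in every library.

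**Figure D3:**
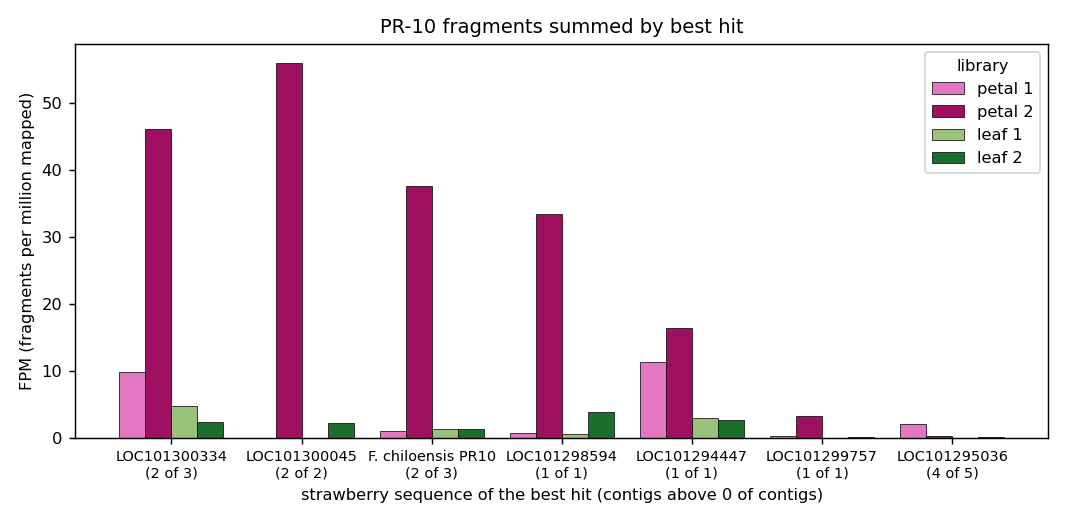
PR-10 FPM (vertical axis, linear) summed over contigs with the same best hit (horizontal axis, with the number of contigs above 0 of all contigs), for best hits with at least 20 fragments, in the 4 libraries. Petal 2 was the highest library for 6 of these 7 best hits, from 3.17 FPM for LOC101299757 to 56.0 for LOC101300045, and petal 1 was highest for LOC101295036 at 1.99 FPM.

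The share of PR-10 was also taken among contigs with a plant hit alone. PR-10 made up 0.261 and 3.30% of plant-hit fragments in petal 1 and petal 2, against 0.147 and 0.203% in leaf 1 and leaf 2. The ratio of petal 2 to petal 1 was 12.6 on this basis, larger than per mapped fragment, and 15.1 without TR20136|c0_g1_i1. Scaling FPKM to an equal plant-hit sum went the other way, and multiplied each ratio of petal 2 to petal 1 by 0.915. For TR20136|c0_g1_i1 the ratio was then 4.96 in place of 5.42. The plant-hit total itself differed between the petal libraries, at 0.960 and 0.587% of mapped fragments in petal 1 and petal 2. Contigs of a jasmonate and ethylene list, nearly all lipoxygenase, took 2705 and 238 FPM of these totals.

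The MLP-like group was divided by library in another way. TR137520|c0_g1_i1 (1099 nt), MLP-like protein 43, had 0 and 0.10 FPKM in petal 1 and petal 2, against 0.10 and 99.77 FPKM in leaf 1 and leaf 2. Of its 1579 fragments all but about 4 lay in leaf 2, which was 998-fold above leaf 1 (288 to 8622). TR102603|c0_g1_i1 (608 nt), from another component but with the same best hit, was at 5.12 FPKM in leaf 2 on 30 fragments and listed at 0 in both petal libraries and leaf 1. Leaf 2 was at least 13.3-fold above leaf 1 for this contig. TR123914|c0_g1_i1 (670 nt), MLP-like protein 34, was instead highest in petal 1, with 6.64 and 0.22 FPKM in petal, against 0.11 and 0 FPKM in leaf, and petal 2 was at 0.0331 of petal 1 (0.00395 to 0.128). No MLP-like contig with at least 20 fragments was thus high in both libraries of a tissue.

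Peamaclein, a cysteine-rich snakin/GASA peptide known as a peach allergen, was the most abundant by fragments of the defence contigs taken here. TR135806|c0_g1_i1 (824 nt) had 998.60 and 589.82 FPKM in petal 1 and petal 2, against 8.55 and 40.00 FPKM in leaf 1 and leaf 2, on 17893 fragments. Unlike the leading PR-10 contigs it was lower in petal 2, at 0.591 of petal 1 (0.573 to 0.609), and leaf 2 was 4.68-fold above leaf 1 (3.80 to 5.80). It made up 5.55 and 5.35% of plant-hit fragments in petal 1 and petal 2, against 0.0643 and 0.327% in leaf 1 and leaf 2. The petal libraries were thus nearly equal by share of plant-hit fragments. With FPKM scaled to an equal plant-hit sum, petal 2 was at 0.541 of petal 1. A second peamaclein contig was listed at 0 throughout.

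Of the 9 chitinase contigs 5 were above 0, and the 2 with at least 20 fragments had the same best hit, an endochitinase PR4-like (LOC101290830), and came from 1 component. TR11104|c0_g2_i1 had 11.43 and 73.74 FPKM in petal, against 64.01 and 39.79 FPKM in leaf, and TR11104|c0_g1_i1 had 0 and 111.95 FPKM in petal, against 0 and 24.71 FPKM in leaf. The second contig shows the same pattern of libraries as TR20136|c0_g2_i1. Summed, they had 3 and 66 fragments in petal 1 and petal 2, against 17 and 14 in leaf 1 and leaf 2. Petal 2 was 17.3-fold above petal 1 (5.67 to 86.1), while the leaf libraries did not differ beyond counting error (ratio of leaf 2 to leaf 1 of 1.09, 0.496 to 2.34). The other chitinases above 0 were 3 contigs of 2 to 6 fragments, each in 1 library.

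Beta-1,3-glucanases and thaumatin-like proteins gave few fragments. Of 11 beta-1,3-glucanase contigs 8 were above 0, and TR102569|c0_g1_i1 (314 nt) had 53 fragments. Its best hit was a glucan endo-1,3-beta-glucosidase 11-like sequence of pear. That match was weak (E-value 7e-12), so the name of this contig is less sure. It had 17.97 and 22.63 FPKM in petal, against 11.15 and 22.34 FPKM in leaf, and neither the petal libraries (ratio of petal 2 to petal 1 of 1.26, 0.596 to 2.75) nor the leaf libraries (ratio of leaf 2 to leaf 1 of 2.0, 0.754 to 5.66) differed beyond counting error. Of 6 thaumatin-like contigs 5 were above 0, and TR10904|c0_g2_i1 (467 nt) was at 0 in both petal libraries, against 2.71 and 3.49 FPKM in leaf 1 and leaf 2, on 22 fragments. A second contig of its component, TR10904|c0_g1_i1, chosen after its values were seen, had 0.35 and 0 FPKM in petal, against 0 and 6.49 FPKM in leaf. The defensin-like protein 19 contig TR101514|c0_g1_i1, chosen in the same way, was at 4.08 FPKM in petal 2 on 15 fragments and listed at 0 in the other 3 libraries. The 8 contigs with other pathogenesis-related names had at most 16 fragments each.

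The comparison of petal with leaf asked which transcripts were deregulated between the tissues. Contigs entered with a mean and a standard deviation over the 4 libraries of at least 10 FPKM, 2157 in all. That standard deviation takes in the difference between the tissues, so the filter was not independent of the test. Limma was run on log2(FPKM + 1), with p-values adjusted by the Benjamini-Hochberg method over all 2157. Of the 14 defence transcripts tested, 2 were called at an adjusted p under 0.05, both higher in petal, against 1.11% of all contigs tested and 3.76% of the 505 with a plant hit. Contigs called higher in petal made up 0.649% of those tested (2.18% with a plant hit) and contigs called lower 0.464% (1.58% with a plant hit). The called defence transcripts were peamaclein TR135806|c0_g1_i1 (794 ± 289 FPKM in petal and 24.3 ± 22.2 FPKM in leaf, SD, n = 2 each, log2 difference 5.28, SE 0.59, limma adjusted p = 5.73e-16) and Pru ar 1-like TR20136|c0_g1_i1 (2479 ± 2414 FPKM in petal and 371 ± 148 FPKM in leaf, SD, n = 2 each, log2 difference 2.33, SE 0.48, limma adjusted p = 0.000191). For the PR-10 contig the SD in petal was nearly as large as the mean. The limma variance prior had infinite degrees of freedom, so a transcript's own spread had no weight in these p-values. The spread came from contigs of similar level. With no filter on low values, or with at least 20 fragments as the filter, 0 defence transcripts were called.

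Neither call held with any 1 library left out, where 1 tissue rested on 1 library. The variance prior then had 0.278 to 0.530 degrees of freedom in place of infinite. Loss of the calls cannot be told apart from this change, so only the log2 differences are given. The log2 difference of peamaclein stayed between 4.23 and 6.33, and that of TR20136|c0_g1_i1 was 1.11 without petal 2 and 3.55 without petal 1. FPKM were also scaled to an equal plant-hit sum per library, and the filter was then applied again. The called defence transcripts stood at 5.09 for peamaclein and 2.13 for TR20136|c0_g1_i1. The median log2 difference was 0.22 over the 2115 contigs then tested and 2.21 over the 2157 of the main test. These medians are of different sets of contigs, so the change between them is not the effect of scaling alone.

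The other 12 defence transcripts tested were not called. Among them TR16938|c0_g1_i1 had the largest log2 difference of the contigs with at least 20 fragments (4.21, SE 1.35, limma adjusted p = 0.132), and TR18945|c0_g1_i1, with little spread in either tissue, had 1.86 (SE 0.63, limma adjusted p = 0.201). TR136329|c0_g1_i1 had 2.21 (limma adjusted p = 0.201), TR20136|c0_g2_i1 had 2.14 and TR20098|c1_g1_i1 had 1.24 (limma adjusted p = 0.515 for both). Without petal 2 these 3 log2 differences were -0.82, -3.69 and -1.57. Without leaf 1 that of TR20136|c0_g2_i1 was -1.55 and that of TR20098|c1_g1_i1 was -0.17, so that their direction rested on single libraries of both tissues. MLP-like 43 TR137520|c0_g1_i1 had a log2 difference of -3.33 with an SE of 3.88. The chitinase contigs had 1.07 for TR11104|c0_g1_i1 and -0.76 for TR11104|c0_g2_i1. The median log2 difference was 2.0 over the 14 defence transcripts tested, 2.21 over all 2157 and -0.46 over the 505 with a plant hit.

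Order of the libraries was counted over the 16 contigs with at least 20 fragments. In 5 of them each petal library was above either leaf library, against 16.9% of the 5212 contigs with at least 20 fragments and 26.9% of the 1207 of these with a plant hit. They were peamaclein, MLP-like 34 TR123914|c0_g1_i1 and the PR-10 contigs TR20136|c0_g1_i1, TR18945|c0_g1_i1 and TR16938|c0_g1_i1. The order rested on few fragments for TR123914|c0_g1_i1, with 2 in petal 2, against 1 and 0 in leaf 1 and leaf 2. So it did for TR16938|c0_g1_i1, with 5 in petal 1, against 0 and 2 in leaf 1 and leaf 2. In 1 of the 16, thaumatin-like TR10904|c0_g2_i1, each petal library was below either leaf library. This held for 13.3% of all and 21.8% of plant-hit contigs. Taken alone, petal 1 was above both leaf libraries for 5 defence transcripts (23.3% of all and 42.9% of plant-hit contigs), and petal 2 for 11 (70.9% and 39.9%). The highest of the 4 libraries was petal 2 for 9 defence transcripts (63.5% of all and 25% of plant-hit contigs), leaf 2 for 3 (9.5% and 21.5%), petal 1 for 2 (13.8% and 30.9%) and leaf 1 for 2 (13.2% and 22.5%).

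The petal libraries were then compared with each other at a ratio of 2, with any library under 3 fragments counted as 3 fragments. Petal 2 was at least 2-fold higher than petal 1 for 7 of the 16, against 61.1% of all and 23.3% of plant-hit contigs. These 7 were 5 PR-10 and both chitinase contigs, and all 7 were at least 4-fold higher. Petal 2 was at least 2-fold lower for 2, MLP-like 34 TR123914|c0_g1_i1 and PR-10 TR139068|c0_g1_i1, against 11.5% of all and 28.6% of plant-hit contigs. With 1 library a side no test was possible. The high share among all contigs includes the grey mould contigs.

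The leaf libraries also differed. Leaf 2 was at least 2-fold higher than leaf 1 for 8 of the 16, against 8.48% of all and 20.1% of plant-hit contigs, and at least 2-fold lower for 2, the PR-10 contigs TR20043|c0_g1_i1 and TR139068|c0_g1_i1, against 10.8% and 21.1%. The 8 were 3 PR-10 contigs, 2 MLP-like 43 contigs, peamaclein, the chitinase TR11104|c0_g1_i1 and the beta-1,3-glucanase TR102569|c0_g1_i1. For the beta-1,3-glucanase the counting interval of this ratio includes equality (0.754 to 5.66). At least 2-fold higher in library 2 of both tissues were 4 contigs, the PR-10 contigs TR20136|c0_g2_i1, TR136329|c0_g1_i1 and TR20098|c1_g1_i1 and the chitinase TR11104|c0_g1_i1, against 3.7% of all and 8.2% of plant-hit contigs. For 2 of these 4 the leaf excess was not present in the sum over the component, where the ratio of leaf 2 to leaf 1 was 1.13 (0.836 to 1.51) for TR20136 and 1.09 (0.496 to 2.34) for TR11104. Above 0 in library 2 of both tissues and at 0 in library 1 of both were 2 of the 16, TR20136|c0_g2_i1 and TR11104|c0_g1_i1 (3.59% of all and 7.04% of plant-hit contigs), and the reverse held for 1, TR139068|c0_g1_i1 (4.03% and 9.03%).

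**Figure D4:**
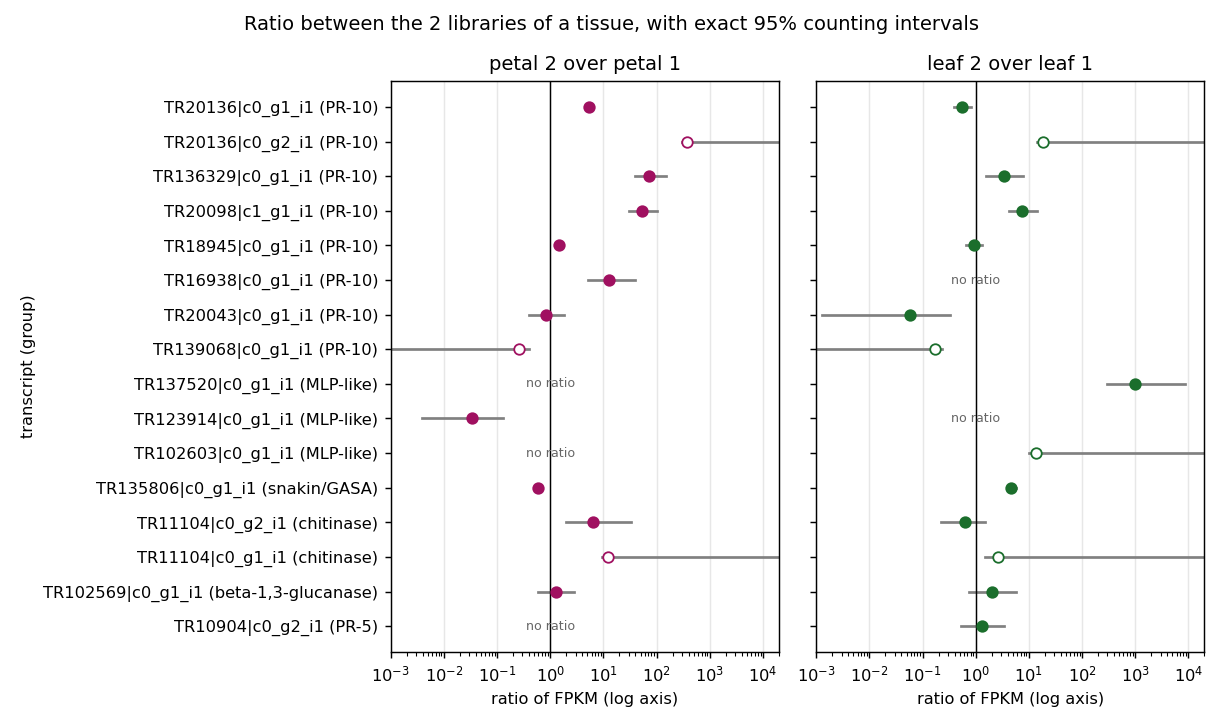
Ratio of FPKM between the libraries of 1 tissue (log axis), petal 2 over petal 1 on the left and leaf 2 over leaf 1 on the right, for the 16 defence transcripts with at least 20 fragments, with exact 95% counting intervals as grey lines. Open symbols are bounds against 3 fragments where 1 library was at 0, "no ratio" marks pairs with too few fragments, and the black line marks equality. TR136329|c0_g1_i1 had a petal ratio of 72.6 and TR18945|c0_g1_i1 one of 1.48, while the largest leaf ratio was 998 for TR137520|c0_g1_i1.

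Other parts of plant defence were counted from lists of hit names. The salicylate list held 39 contigs, of which 4 had at least 20 fragments and 0 entered the test, and all 4 were SUPPRESSOR OF npr1-1-like receptors, so that no contig of salicylate synthesis itself had that many. The jasmonate and ethylene list held 65 contigs, of which 1 of 4 tested was called higher in petal (0.649% of all and 2.18% of plant-hit contigs tested) and 0 lower. It was the lipoxygenase TR14987|c0_g2_i1, an enzyme at the start of the jasmonate pathway, with 537.10 and 52.81 FPKM in petal, against 0 and 0.30 FPKM in leaf (limma adjusted p = 5.69e-06). This contig was highest in petal 1, the reverse of the leading PR-10 contigs. On the jasmonate and ethylene list 6 contigs had at least 20 fragments. Both petal libraries were higher for 2 of them and lower for 1 (26.9 and 21.8% of plant-hit contigs). Another lipoxygenase, TR128656|c0_g1_i1, was lower, at 0.33 and 2.63 FPKM in petal, against 8.83 and 18.24 FPKM in leaf. Of 19 WRKY transcription factor contigs 3 had at least 20 fragments and 0 entered the test. Among 69 contigs listed by name as other secreted defence proteins, 1 of 5 tested was called higher in petal (against the same 0.649% and 2.18%) and 0 lower. This was the lipid-transfer protein DIR1 (TR13766|c0_g1_i1), which in Arabidopsis takes part in systemic resistance. It had 467.49 and 725.19 FPKM in petal, against 13.15 and 14.34 FPKM in leaf. The list takes any peroxidase, and so includes a glutathione peroxidase (TR126581|c0_g1_i1). Of its 9 contigs with at least 20 fragments, 2 were higher in both petal libraries and 2 lower (26.9 and 21.8% of plant-hit contigs). The lipid-transfer contig TR19901|c0_g1_i1 was lower, at 2.92 and 1.19 FPKM in petal, against 26.25 and 8.82 FPKM in leaf.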

How the data were processed

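The deposited values are FPKM that the authors made with RSEM and bowtie on a Trinity assembly of all 4 libraries, annotated by their best hits in NCBI nt/nr. The authors compared tissues with edgeR. The table is part of that assembly, so defence contigs outside it were not counted and the order of families holds for this table only. FPKM are not counts, so limma (3.58.1, R 4.3.3) was run on log2(FPKM + 1) with its variance prior following the level (trend), tissue being the only term, two-sided, with Benjamini-Hochberg adjustment. Log2 differences understate changes of low contigs. Fragments and depth were reconstructed from the FPKM steps of each contig length (Python 3.11.15, scipy 1.17.1): 98.7 to 98.8% of low values per library, and 72 of 80 low values of the defence contigs, lay within 0.1 of a whole number. The steps were tested on simulated data. Exact binomial intervals cover counting error only.

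Named transcripts were, among contigs with at least 20 fragments, the 3 highest of each group, the extremes of the petal ratio and of the log2 difference, and every call. The members, lists and tests were chosen with earlier results of these data known. Alternatives were pseudocounts of 0.1 and 10, other filters, equal plant-hit sums, no trend, limma-voom on reconstructed fragments with trimmed-mean (TMM) scaling, a replicate block and leaving out each library. The RefSeq gene table was not used, since hits name strawberry genes, and no sequences were printed.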

Additional observations from a re-analysis of the deposited data

How the results depend on the processing

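The 2 defence transcripts and 24 contigs that limma called in all became 1 and 9 when the filter was a mean of 1 FPKM, 0 and 3 with no filter, 0 and 0 with at least 20 fragments, 0 and 0 without the trend, and 1 and 87 by limma-voom. With 1 library left out they were 0 to 2 and 305 to 810, with 0.278 to 0.530 prior degrees of freedom. With a pseudocount of 10 TR20136|c0_g2_i1 was also called (adjusted p = 0.0424), and without leaf 1 the MLP-like TR137520|c0_g1_i1 (adjusted p = 0.0280). The cause was not tested. At an unadjusted p under 0.05 limma had 4 of 47 defence transcripts with no filter, against 100 of all 39061 contigs tested. With at least 20 fragments it had 3 of 16 defence transcripts, against 307 of all 5212 contigs. Without the trend it had 0 of 14 defence transcripts, against 14 of all 2157 contigs.

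With a replicate block 6 defence transcripts and 51 contigs were called, the added ones being TR136329|c0_g1_i1, TR16938|c0_g1_i1, TR18945|c0_g1_i1 and TR20136|c0_g2_i1. The labels do not say that the numbers pair samples, and the correlation of the petal and leaf differences between libraries 1 and 2 was 0.0406 over the 2157 contigs tested and 0.497 over plant-hit contigs with at least 20 fragments.

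With 1 library left out the log2 difference changed sign for TR11104|c0_g1_i1 (-2.34 to 4.48), TR11104|c0_g2_i1 (-2.05 to 0.54), TR136329|c0_g1_i1 (-0.82 to 5.24), TR20098|c1_g1_i1 (-1.57 to 4.04) and TR20136|c0_g2_i1 (-3.69 to 7.98). Peamaclein was also lost with no filter (adjusted p = 0.427), at least 20 fragments (0.469) or no trend (0.407), and TR20136|c0_g1_i1 with those, by limma-voom (0.648) and under the filter at 1 FPKM (0.503). Contigs at least 2-fold lower in petal 2 than in petal 1 numbered 1 in place of 2 with at least 50 fragments or with a fold of 4. Those at least 2-fold higher numbered 9 in place of 7 with equal plant-hit fragments, a setting chosen after seeing the data. Contigs higher in petal than in both leaf libraries numbered 5 to 11 with 1 petal library left out, also chosen after seeing the data.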

Other observations

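A further 14 contigs carried the same product words but had best hits in other organisms, mostly chitinases of aphids, other insects and ticks. Of these 6 were above 0 in petal 1 and 10 in petal 2, against 0 in leaf 1 and 0 in leaf 2.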
